A study of Mus musculus with 6 samples.

Results

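The genes described here build ribosomes: 40 genes of the nucleolus, of ribosomal RNA processing and of RNA polymerase I. They were taken by symbol from a list of such genes, and each of the 40 matched 1 row of the 23793 rows in the authors' deposited table. Messenger RNA had been sequenced from i660BM cells, a mouse line of pro-B cells (early B cell precursors, strain C57BL/6) cultured with interleukin 7, in which doxycycline switches on PU.1. PU.1 is encoded by Spi1 and belongs to the ETS transcription factors of blood cells. The first group was 3 samples of non-induced cells, and the second was 3 samples of cells given 70 ng/ml doxycycline for 48 h. No group received doxycycline without PU.1 induction, so effects of the drug and of PU.1 cannot be told apart, and both groups come from a single line.

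Ribosomes are made mainly in the nucleolus. RNA polymerase I transcribes a long precursor RNA there, small nucleolar ribonucleoproteins (snoRNPs) modify it, and many assembly factors cut and fold it into the small (40S) and large (60S) subunits. Growing lymphocyte precursors make ribosomes at a high rate, and the transcription factor MYC is a well known activator of these genes.

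The table held 1 value per gene and group, in FPKM (fragments scaled by transcript length and sequencing depth), so no value per library and no spread between libraries can be given. Depth, read from the steps between low values, was near 119000000 fragments in the non-induced group and 122000000 in the induced group, each the sum of 3 libraries. At that depth the lowest member, Polr1e, stood on about 1600 fragments per kilobase in each group. A gene is said to be called, or to have risen or fallen, where the authors' Cuffdiff test gave a q-value under 0.05. Errors are implied standard errors, the deposited log2 change divided by the deposited test statistic. The labels do not say whether the 3 samples of a group were separate cultures, so the q-values may measure technical spread only. Spi1 rose from 36.0 FPKM to 246 FPKM in the authors' deposited table, in the direction the labels give. Of 10 pro-B markers all were tested and 8 were called higher. Their sum was 2679 FPKM before and 4103 FPKM after induction in the authors' deposited table, and Rag1 was the lowest of them in both groups. T cell markers (4) summed to at most 0.0294 FPKM in either group of the authors' deposited table, with Cd3e and Cd4 listed at 0 in both. Stromal markers (3) were all listed at 0. Of 7 macrophage or granulocyte genes, Elane and S100a8 were listed at 0 in both groups, and the sum went from 0.378 to 15.6 FPKM, of which Lyz2 made up 15.2 FPKM in the authors' deposited table.

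All 40 ribosome biogenesis genes were tested, and all 40 were lower in induced than in non-induced cells. Of these, 22 were called lower (55%) and 0 higher, where 16.1% of all 10657 tested genes were called lower and 19.0% higher. The members and the gene lists used below were chosen with earlier results of these data known. Their counts are therefore descriptions and not independent evidence. Unadjusted Cuffdiff p-values under 0.05 numbered 28 lower and 0 higher among the 40. By the same rule 2170 of all 10657 tested genes were lower and 2346 higher. The falls were small. The median log2 change was -0.23, a level 14.8% lower, while the median over all tested genes was -0.01, and 51.4% of all tested genes were below 0. No member changed by as much as 1.5-fold (Cuffdiff levels; 3.85% of all tested genes were that much lower and 6.34% that much higher), and 4, Heatr1, Polr1b, Rrp9 and Nop14, were lower by more than 20%. The median implied standard error of the members was 0.15, so a typical change was under 2 such errors. With p-values taken from the deposited statistic as a normal deviate, 3 members were called lower, Heatr1, Polr1b and Rrp9, and 0 higher, where 6.17% of all tested genes were called lower and 9% higher by that rule. At a deposited q-value under 0.01 the counts were 13 lower and 0 higher, against 11.1% and 14.8% of all tested genes. Among genes of at least 1 FPKM 16.2% were called lower and 18.6% higher, and among genes of at least 5 FPKM 15.1% and 17.7%, with 22 members called lower in both sets. Because the RNA came from whole cultures, fewer cells of a type and less RNA per cell cannot be told apart.

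**Figure D1:**
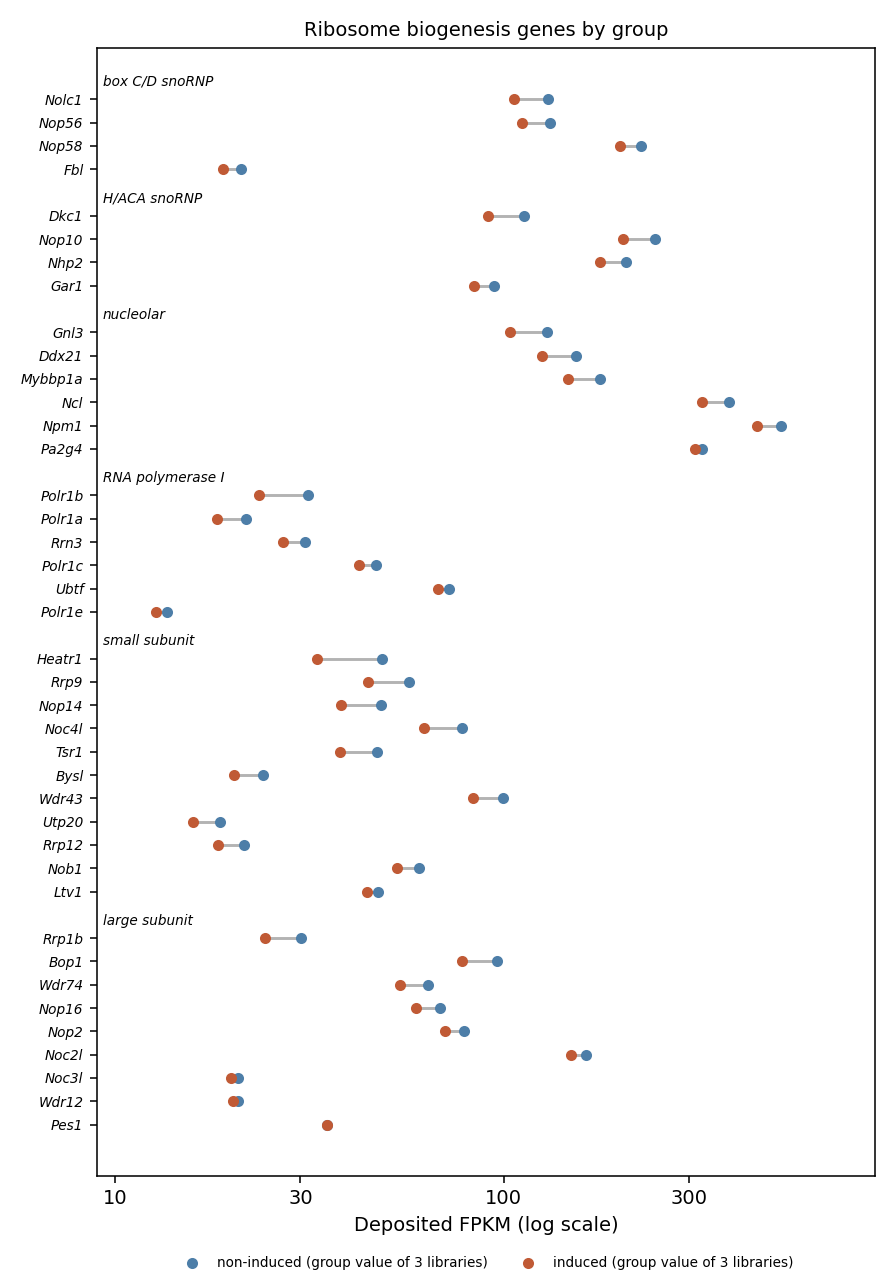
Deposited FPKM (log scale) of the 40 ribosome biogenesis genes in non-induced (blue) and induced (orange) cells, 1 group value of 3 libraries each, by role. Every orange point lies to the left of its blue point, by 32.0% for Heatr1 and by under 0.1% for Pes1, whose points coincide.

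Members were spread over 18 chromosomes, with at most 6 on a single chromosome (chromosome 11). Their levels in non-induced cells ran from 13.6 FPKM (Polr1e) to 515 FPKM (Npm1), with a median of 66.2, and in induced cells from 12.7 to 448 with a median of 56.8, in the authors' deposited table. Spearman's rho between level in non-induced cells and log2 change was -0.15 over the 40 genes, which share their libraries and are not independent. Genes of at least 10 FPKM in non-induced cells as a whole had a median log2 change of -0.03, and 16.1% of these 6570 genes were called lower.

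Promoter sequence was examined because the members moved together. RefSeq windows (GRCm38.p6, the build also known as mm10), from 250 bases before to 50 bases after an annotated start site, were found for 36 of the 40 genes. Npm1, Fbl, Bop1 and Rrp12 had no entry. The E-box CACGTG, the core sequence bound by MYC with MAX, reads the same on both strands. It lay in the windows of 8 of the 36 members (22.2%), against 12.2% of 8015 tested genes with a window. By windows the shares were 17.8% of the members' 45, 10.3% of those of tested genes and 7.15% of all 32851. In Rrn3 and Nop2 an E-box lay before the start site, and in the other 6 it lay within 40 bases after it. The stretches of 7 of the 8 members are shown because the genes of MYC and MYCN, described last, fell. Each is 30 bases, 5′ to 3′ on the strand of the gene, with the E-box in capitals.
Rrn3, chr16:13780639-13780668, plus strand: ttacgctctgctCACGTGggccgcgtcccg
Rrn3, chr16:13780472-13780501, plus strand: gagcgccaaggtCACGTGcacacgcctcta
Nop2, chr6:125131811-125131840, plus strand: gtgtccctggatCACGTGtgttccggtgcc
Wdr43, chr17:71616220-71616249, plus strand: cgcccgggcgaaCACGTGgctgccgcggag
Tsr1, chr11:74898092-74898121, plus strand: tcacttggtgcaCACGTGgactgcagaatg
Ltv1, chr10:13193092-13193121, minus strand: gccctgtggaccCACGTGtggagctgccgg
Utp20, chr10:88826765-88826794, minus strand: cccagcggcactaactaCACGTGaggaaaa
Mybbp1a, chr11:72441347-72441376, plus strand: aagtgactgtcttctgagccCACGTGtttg

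The 8 members with an E-box had a median log2 change of -0.21 and the 28 without one -0.24. Of the 8, 4 were called lower and 4 were not, where 22 of all 40 members and 16.1% of all tested genes were called lower. Among the 7 shown, Tsr1, Mybbp1a, Wdr43 and Utp20 were called lower, and Rrn3, Nop2 and Ltv1 were not. The core GAGGAAGT, a form favoured by PU.1, was searched on both strands and found in the windows of 5 members (13.9%), against 3.84% of the 8015 tested genes. It lay in 13.3% of the members' windows, in 3.24% of those of tested genes and in 3.20% of all windows. Members with it had a median log2 change of -0.13 and those without it -0.24. The stretches of 4 of the 5 are shown because PU.1 is the induced factor, again 30 bases each with the core in capitals. Wdr43 holds it on the opposite strand.
Nop14, chr5:34660250-34660279, minus strand: cgccaggaagtcGAGGAAGTgtggcctcct
Wdr43, chr17:71616168-71616197, plus strand: tccctccgccccACTTCCTCcctgcaggcc
Noc2l, chr4:156235969-156235998, plus strand: cggggctcgcggGAGGAAGTcggagggcgc
Noc3l, chr19:38819250-38819279, minus strand: ccgccgcccgaaGAGGAAGTcccgcctccc

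Of the 5, 2 were called lower (Nop14 and Wdr43) and 3 were not, Noc2l and Noc3l among them. By the same rule 22 of all 40 members and 16.1% of all tested genes were called lower. The general ETS core CCGGAAG cannot share its GGAAG with the PU.1 form. It was found on either strand in the windows of 13 members (36.1%), against 22.6% of the 8015 tested genes. The core lay in 31.1% of the members' windows, in 19.3% of those of tested genes and in 8.86% of all. Members with it had a median log2 change of -0.17 and those without it -0.25. Of the 13, 4 were called lower and 9 were not, beside the same 22 of 40 members and 16.1% of all tested genes. The member with the largest fall, Heatr1, holds it 16 bases before the start site and Nolc1 holds it 14 bases before. In Nop2 an E-box and an ETS core stand in the same 100 bases before the start site, at chr6:125131783-125131882 on the plus strand, shown whole with both in capitals.
Heatr1, chr13:12395347-12395376, plus strand: cgtagtgagaagCCGGAAGttcctatgagg
Nolc1, chr19:46075821-46075850, plus strand: acgcgtgtgggaCCGGAAGcaacttctaga
Nop2, 100 bases: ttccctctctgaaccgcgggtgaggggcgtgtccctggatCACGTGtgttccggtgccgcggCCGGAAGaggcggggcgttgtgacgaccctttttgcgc

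Members' windows held 60.3% G and C on average, those of tested genes 60.6% and all windows 53.8%. The shares are descriptions of letters in these windows, and binding was not measured.

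Of the RNA polymerase I genes, those for the 2 largest subunits fell. Polr1b, the second largest subunit (chromosome 2, 129100995 to 129126594, plus strand), went from 31.4 to 23.5 FPKM according to the authors' deposited table. That is a fall of 25.1%, a log2 change of -0.42 (implied standard error 0.14) and q = 0.000287 per the authors' deposited table. Polr1a, the largest subunit, went from 21.7 to 18.3 FPKM by the authors' deposited table (log2 change -0.25, q = 0.0123). These were the called members of this role, 2 of 6 (33.3%, against 16.1% of all tested genes). Rrn3, which brings the polymerase to the promoter and holds the upstream E-boxes shown above, stood at 30.8 and 27.1 FPKM according to the authors' deposited table (q = 0.0700). Polr1c, a subunit shared with RNA polymerase III, stood at 46.8 and 42.3 FPKM per the authors' deposited table (q = 0.179). The remaining genes of this role had changes smaller than their implied standard errors. Ubtf, the factor that binds ribosomal DNA, stood at 72.4 and 67.6 FPKM by the authors' deposited table (q = 0.388). Polr1e had the smallest change of the 6, at 13.6 and 12.7 FPKM (log2 change -0.09, implied standard error 0.16, q = 0.482) according to the authors' deposited table. The last 4 genes did not pass the test, and their difference from Polr1a and Polr1b was not tested.

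**Figure D2:**
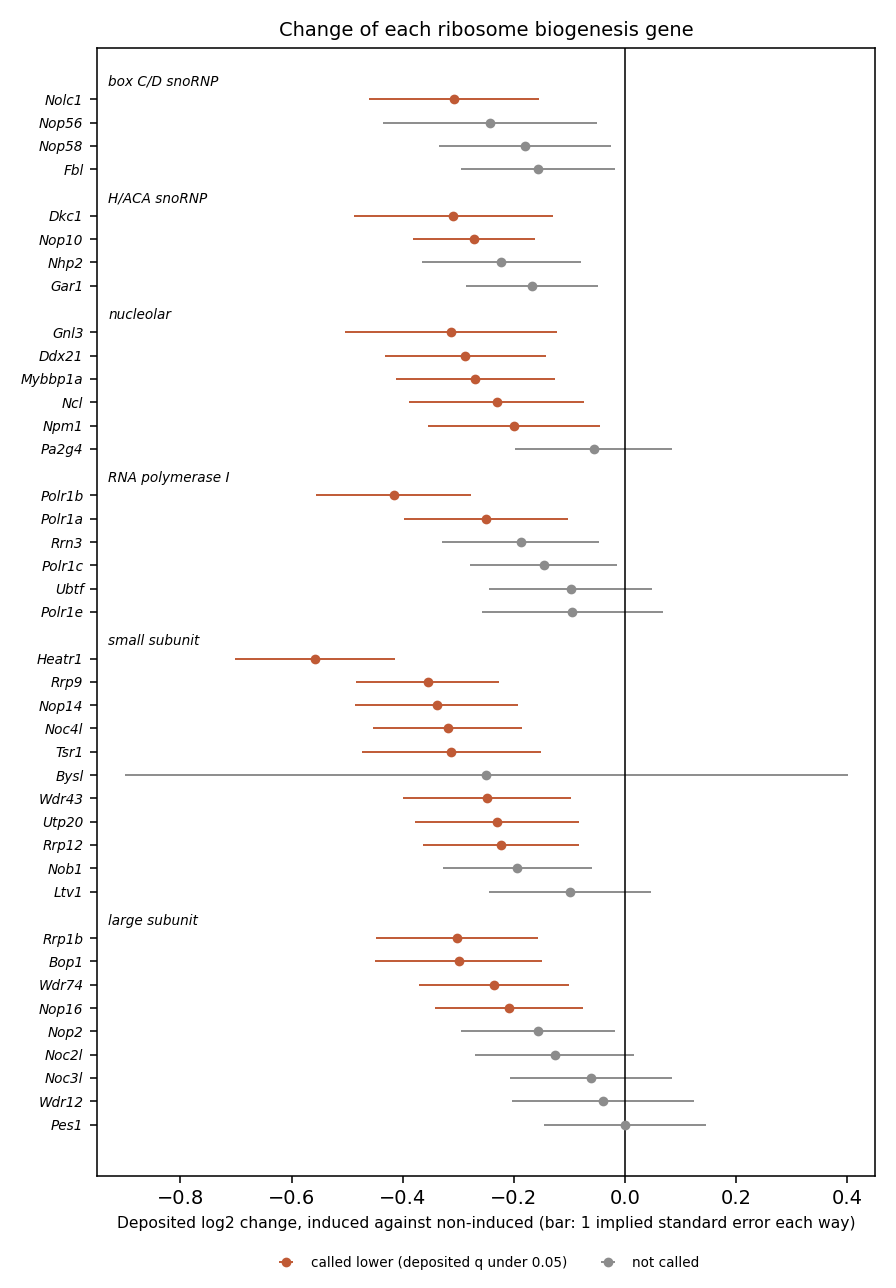
Deposited log2 change of each of the 40 genes, induced against non-induced, with a bar of 1 implied standard error to each side and colour for the call. The 22 called genes lie between -0.56 (Heatr1) and -0.20 (Npm1), and the wide bar belongs to Bysl (0.65).

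Of the 11 small subunit factors 8 were called lower (72.7%, against 16.1% of all tested genes), and Heatr1 had the largest fall of all 40 genes. Heatr1, the UTP10 protein of the early small subunit processome (chromosome 13, 12395027 to 12440289, plus strand), went from 48.7 to 33.1 FPKM per the authors' deposited table. Its log2 change was -0.56, a fall of 32.0%, with an implied standard error of 0.14 and q = 0.000287 by the authors' deposited table. Rrp9, a protein of the U3 snoRNP (chromosome 9, 106475963 to 106485424, plus strand), went from 57.1 to 44.6 FPKM according to the authors' deposited table (log2 change -0.36, implied standard error 0.13, q = 0.000287). Heatr1 and Rrp9 thus shared the smallest q-value of the table with Polr1b among the 40. That q-value belongs to the smallest Cuffdiff p-value listed, 5e-05, which genes outside the 40 such as Nat10 and Myc share. It therefore does not rank these genes. Nop14, a processome protein whose window holds the PU.1 form, went from 48.2 to 38.1 FPKM per the authors' deposited table (log2 change -0.34, implied standard error 0.15, q = 0.000550). Its partner Noc4l went from 78.0 to 62.5 FPKM and Tsr1, a late 40S factor, from 47.1 to 38.0 FPKM by the authors' deposited table. The other called members were the processome genes Wdr43 (99.2 to 83.5 FPKM) and Utp20 (18.7 to 15.9 FPKM) and the pre-ribosome export factor gene Rrp12 (21.5 to 18.4 FPKM) according to the authors' deposited table. Early and late factors were thus among the called genes.

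The 3 small subunit members that were not called act late in 40S maturation. Nob1, the nuclease that makes the end of 18S RNA, stood at 60.7 and 53.1 FPKM per the authors' deposited table, just short of the threshold (q = 0.0555). Ltv1, a 40S export factor with an E-box, stood at 47.5 and 44.4 FPKM by the authors' deposited table (log2 change -0.10, implied standard error 0.15, q = 0.394). Bysl stood at 24.1 and 20.2 FPKM, with a log2 change of -0.25 like that of the called genes, an implied standard error of 0.65 and q = 0.661 according to the authors' deposited table. Bysl shares its locus in the table with Ccnd3, a D cyclin gene that rose from 646 to 1167 FPKM per the authors' deposited table. Fragments of overlapping genes can be split between them, so the value of Bysl is uncertain, and the part of Ccnd3 in it was not tested.

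All 9 large subunit factors were lower, and 4 of them were called (44.4%, against 16.1% of all tested genes). With normal p-values none of these 4 was called. Rrp1b, a nucleolar processing factor, went from 30.01 to 24.3 FPKM by the authors' deposited table (log2 change -0.30, implied standard error 0.15, q = 0.00104). Bop1, a scaffold of 60S processing, went from 96.0 to 78.1 FPKM according to the authors' deposited table (log2 change -0.30, implied standard error 0.15, q = 0.00570). Wdr74, a 60S assembly factor (63.8 to 54.1 FPKM), and the nucleolar factor Nop16 (68.7 to 59.4 FPKM) followed per the authors' deposited table. Bop1 acts in a complex with Pes1 and Wdr12 in 60S processing, and these partners did not pass the test. Pes1 stood at 35.1 FPKM in both groups (log2 change -0.000544, implied standard error 0.15, q = 0.997) by the authors' deposited table. Wdr12 stood at 20.7 and 20.2 FPKM according to the authors' deposited table (q = 0.801). The difference between Bop1 and its partners was not tested, and Bop1 shares its locus with 3 other rows, of which Mroh1 stood at 11.6 and 9.66 FPKM per the authors' deposited table. The RNA methyltransferase gene Nop2 stood at 78.8 and 70.7 FPKM, and the nucleolar complex genes Noc2l at 162 and 149 FPKM and Noc3l at 20.7 and 19.9 FPKM by the authors' deposited table, and none of these 3 was called (q = 0.140, 0.244 and 0.635).

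Among snoRNP genes, 3 of 8 were called lower, where 16.1% of all tested genes were. The H/ACA class converts uridines to pseudouridines in ribosomal RNA. Its catalytic subunit gene Dkc1, dyskerin (chromosome X, 75095854 to 75109777, plus strand), went from 113 to 91.2 FPKM according to the authors' deposited table (log2 change -0.31, implied standard error 0.18, q = 0.0145). Nop10, its smallest subunit, went from 244 to 203 FPKM per the authors' deposited table (log2 change -0.27, implied standard error 0.11, q = 0.00422). The other core proteins were not called: Nhp2 stood at 206 and 177 FPKM (q = 0.0676) and Gar1 at 94.4 and 84.0 FPKM (log2 change -0.17, implied standard error 0.12, q = 0.108) by the authors' deposited table. So 2 of the 4 subunits were called, and the 4 log2 changes lay between -0.31 and -0.17.

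The box C/D class adds methyl groups to ribosomal RNA. Nolc1, a chaperone of both classes (chromosome 19, 46075863 to 46085530, plus strand), went from 130 to 106 FPKM according to the authors' deposited table (log2 change -0.31, implied standard error 0.15, q = 0.00151). The scaffold genes Nop56 (132 and 111 FPKM, q = 0.0889) and Nop58 (225 and 198 FPKM, q = 0.0763) did not pass the test per the authors' deposited table. The methyltransferase gene Fbl, fibrillarin, stood at 21.1 and 18.9 FPKM (log2 change -0.16, implied standard error 0.14, q = 0.189) by the authors' deposited table. Per length, Fbl was thus listed at a lower level than either scaffold gene in both groups.

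Genes of abundant nucleolar proteins fell in 5 of 6 cases (83.3%, against 16.1% of all tested genes). Npm1, nucleophosmin (chromosome 11, 33152287 to 33163206, minus strand), was the highest of the 40 genes and went from 515 to 448 FPKM according to the authors' deposited table. Its change on the log2 scale, -0.20 with implied standard error 0.16, was the called one nearest to the threshold (q = 0.0449) per the authors' deposited table. Ncl, nucleolin (chromosome 1, 86344719 to 86359400, minus strand), went from 379 to 323 FPKM by the authors' deposited table (log2 change -0.23, implied standard error 0.16, q = 0.0248). Gnl3, the GTPase nucleostemin, had the largest change of the role and went from 129 to 104 FPKM according to the authors' deposited table (log2 change -0.31, implied standard error 0.19, q = 0.00953). The helicase gene Ddx21 went from 153 to 125 FPKM and Mybbp1a, a nucleolar regulator with an E-box just after its start, from 177 to 147 FPKM per the authors' deposited table. Pa2g4, which encodes the growth regulator EBP1, ranked next to Ncl in level and was not called, at 322 and 310 FPKM (log2 change -0.06, implied standard error 0.14, q = 0.660) by the authors' deposited table.

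Several members carry snoRNA genes in their introns. By GENCODE M21, annotated on the same build, 7 members (Ncl, Nop56, Nop58, Dkc1, Wdr43, Gnl3 and Tsr1) hold 21 snoRNA genes inside their bounds on the same strand. Of the 7, 5 were called lower, with a median log2 change of -0.25, and of the 33 others 17 were, with a median of -0.22, where 16.1% of all tested genes were called lower. The difference between the 7 and the 33 was not tested. The table had 13 rows for these snoRNAs. None was tested, 12 were listed at 0 in both groups, and Snora75, inside Ncl, was listed in the authors' deposited table at 10.7 FPKM without and at 0 with induction. The libraries were made from messenger RNA, so these rows do not measure mature snoRNAs. Counting loci in the table, 13 members shared theirs with other rows and 27 did not. Of the 27, 16 were called lower (against 18.0% lower and 20.6% higher among all tested genes without a shared locus, with p-values adjusted again), with a median log2 change of -0.22. Of 11 tested neighbours at the shared loci, 6 were below 0 and 1, Ccnd3, was called, in the higher direction. The members with a shared locus, whose values are less certain, were Nop56, Nop58, Dkc1, Nhp2, Gnl3, Ncl, Polr1e, Tsr1, Bysl, Wdr43, Bop1, Noc2l and Wdr12, of which 6 were called lower with a median log2 change of -0.24 over the 13.

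**Figure D3:**
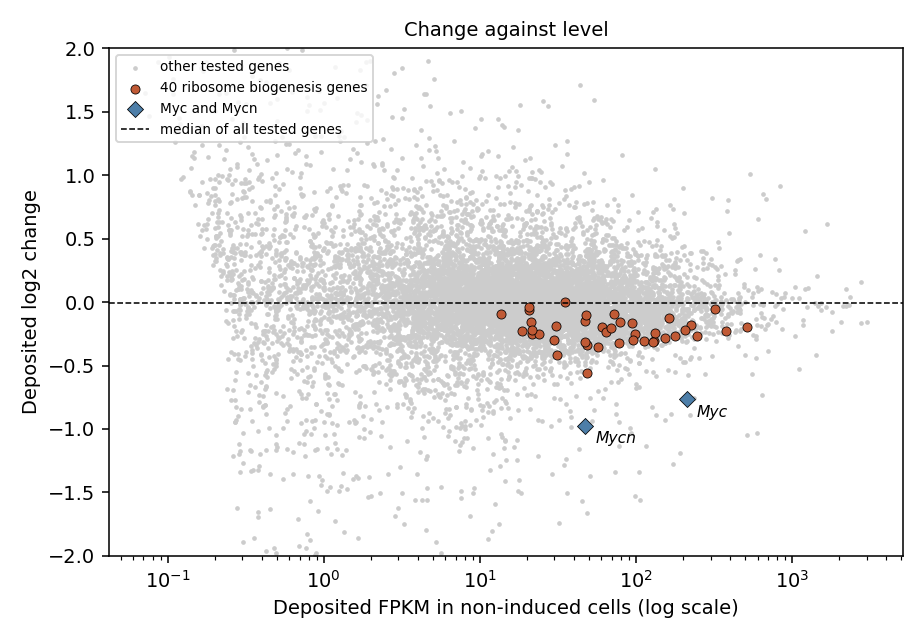
Deposited log2 change against deposited FPKM in non-induced cells (log scale) for the tested genes within the axes (10488 of 10657, grey), the 40 ribosome biogenesis genes (orange) and Myc and Mycn (blue). The 40 genes lie below the dashed median of all tested genes, except Pes1, which lies just above it, and Myc and Mycn lie lower.

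Further genes of subunit assembly, listed apart from the 40, mostly had lower levels with induction, 35 of 40 for the small and 43 of 45 for the large subunit. Of 40 other small subunit factors, all tested, 15 were called lower (37.5%, against 16.1% of all tested genes) and 0 higher (against 19.0%), with a median log2 change of -0.18 (unadjusted Cuffdiff p under 0.05 for 22 lower and 1 higher). By that unadjusted rule 2170 of all 10657 tested genes were lower and 2346 higher. The RNA acetyltransferase gene Nat10 went from 45.2 to 33.8 FPKM and the processome gene Nol6 from 36.2 to 27.7 FPKM according to the authors' deposited table. Of 45 other large subunit factors 21 were called lower (46.7%) and 1 higher (2.22%), with a median of -0.20. Surf6 went from 42.5 to 32.9 FPKM and Nifk, which binds the proliferation antigen Ki-67, from 92.7 to 73.4 FPKM per the authors' deposited table. The exception was Gltscr2, a 60S factor, which rose from 110 to 129 FPKM by the authors' deposited table (log2 change 0.23, implied standard error 0.14, q = 0.0228). It shares its locus with another row, and it was not called with normal p-values or at q under 0.01. The setting without shared loci leaves it out, so that setting does not bear on its rise.

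The remaining pathway lists had medians nearer 0. Among 18 other RNA polymerase I genes 3 were called lower and 0 higher (median -0.14, unadjusted Cuffdiff p under 0.05 for 5 lower and 1 higher). By the unadjusted rule 2170 of all 10657 tested genes were lower and 2346 higher. The subunit gene Cd3eap went from 23.7 to 19.3 FPKM and the shared subunit gene Polr2f from 169 to 144 FPKM according to the authors' deposited table. Among 10 snoRNP assembly genes 2 were called lower and 0 higher (median -0.11, unadjusted Cuffdiff p under 0.05 for 2 lower and 0 higher), Shq1 (11.3 to 9.01 FPKM) and Rpap3 (31.1 to 25.05 FPKM) per the authors' deposited table. Among 14 genes of the RNA exosome, which trims processing products, 3 were called lower and 0 higher (median -0.12, unadjusted Cuffdiff p under 0.05 for 5 lower and 0 higher). Its nuclease gene Exosc10 went from 40.6 to 33.4 FPKM and Exosc1 from 41.9 to 35.7 FPKM by the authors' deposited table. Among 21 genes of RNA polymerase III, which makes 5S RNA and transfer RNAs, 3 were called lower and 0 higher (median -0.08, unadjusted Cuffdiff p under 0.05 for 4 lower and 0 higher). The subunit genes Polr3g (10.2 to 8.09 FPKM) and Polr3b (16.1 to 13.1 FPKM) were its largest falls according to the authors' deposited table. For the polymerase III list, the share called lower (14.3%) was near the 16.1% of all tested genes, and for the other polymerase I genes it was 16.7%. The shares were also not far from 16.1% for the 10 snoRNP assembly genes (20%) and the 14 exosome genes (21.4%). Counted without the test, levels were lower in 14 of 18 polymerase I and 9 of 10 snoRNP assembly genes. They were lower in 13 of 14 exosome and 17 of 21 polymerase III genes. Of all tested genes 51.4% were lower, and 19.0% were called higher.

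**Figure D4:**
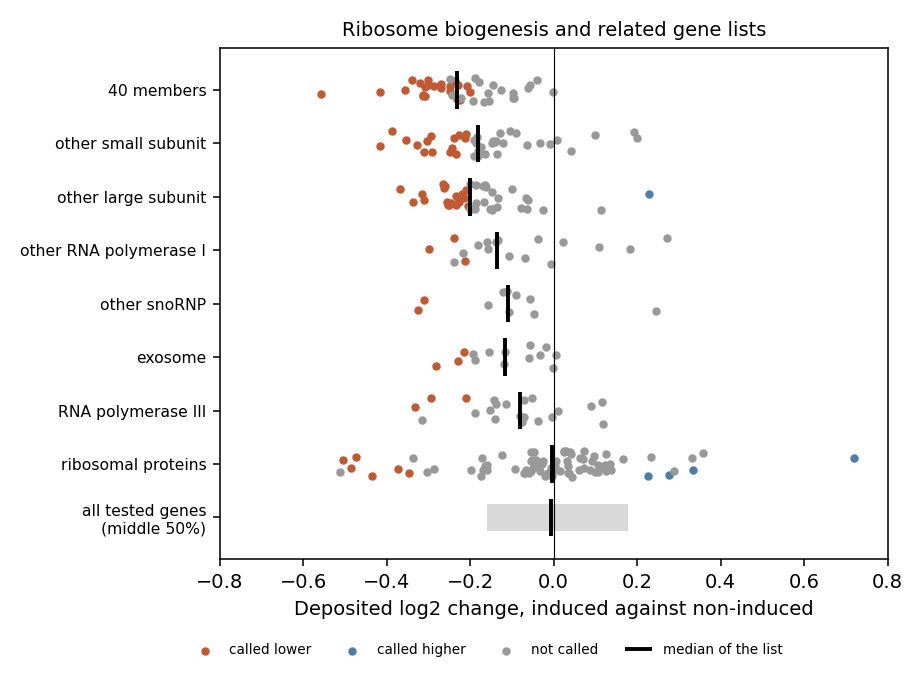
Deposited log2 change of each tested gene of the 40 members and the related lists, with the median of each as a black bar and, for all tested genes, the middle 50% as a grey bar. The medians lie at -0.23 for the members, -0.20 and -0.18 for other subunit factors and about 0 for ribosomal proteins, of which 2 genes (Rpl11 and Rpl3l) lie outside the axis.

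Genes for the proteins of the ribosome itself were counted beside the 40. Of 83 tested cytosolic ribosomal protein genes 7 were called lower (8.43%, against 16.1% of all tested genes) and 5 higher (6.02%, against 19.0%), and their median log2 change was -0.00. Rpl11 (2.26 to 0.334 FPKM) and Rpl10a (15.8 to 11.1 FPKM) had the largest falls, and Rpl3l (0.229 to 0.5001 FPKM) and Rpl13a (383 to 630 FPKM) the largest rises, per the authors' deposited table. Ribosomal protein genes have many processed copies in the genome that can take or add fragments. Levels in non-induced cells were as unlike as 0.504 FPKM (Rpl23a), 0.804 FPKM (Rpl24) and 2353 FPKM (Rpl8) in the authors' deposited table. Single values such as that of Rpl11 are therefore uncertain, and so are the median and the counts of this list. The rise of Rpl3l, at a low level, was not called with normal p-values. The difference between this list and the 40 genes was not tested.

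Among the genes that control ribosome production, Myc and Mycn fell by more than any of the 40. Myc went from 212 to 125 FPKM by the authors' deposited table (log2 change -0.76, implied standard error 0.14, q = 0.000287). Mycn went from 47.4 to 24.1 FPKM according to the authors' deposited table (log2 change -0.97, implied standard error 0.13, q = 0.000287). Max, the partner of both proteins, stood at 104 and 107 FPKM per the authors' deposited table without passing the test (q = 0.677). Of the MAX-binding repressors, Mxd3 rose from 24.3 to 46.8 FPKM, while Mxd4 (22.6 to 13.5 FPKM) and Mxd1 (4.64 to 2.88 FPKM) fell by the authors' deposited table. Of 10 tested genes of this network 4 were called lower and 2 higher, the other rise being that of Mlxip. Of all tested genes 16.1% were called lower and 19.0% higher, so the count of rises was near that background. Mxd3 shares its locus with another row, and its rise (implied standard error 0.36) was not called with normal p-values. The differences between these genes and the 40 were not tested, and the part of Myc and Mycn in the falls of the 40 genes was not tested.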

How the data were processed

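The members and gene lists were chosen with earlier results of these data known. Stranded messenger RNA libraries were made, per the labels' protocols, and the submitters' processing notes list Trim Galore 0.2.8.1, TopHat2 2.0.9, Cufflinks, Cuffdiff 2.1.1 and build mm10. Which annotation was used, and whether strand was, is not given in the sources used here. For each gene and group the authors deposited 1 FPKM value, with a q-value, a p-value, a log2 fold change and the test statistic, which is a score. Benjamini-Hochberg adjustment of the deposited p-values of 10657 tested rows gave the deposited q-values to within 5.15e-07. The deposited fold change held error marks in 524 rows, none of them a member and all with an induced value of 0. For Nolc1 the deposited log2 change differed from the ratio of its FPKM values by 0.018. No test per gene could be made, so calls are those of Cuffdiff. The relation between statistic and standard error is assumed, not stated in the table. Depth was estimated from steps of low FPKM values of genes with 1 transcript of at least 1 kb; 70.4% and 63.7% of the lowest values lay within 0.15 of a whole number of fragments, so it is approximate. The last 20 bases of 43 of 45 promoter windows were found in GENCODE M21 transcripts of the same gene. The promoter stretches of 1 member and 1 marker list are not reported here. Every member is named, with errors and q-values for changes of at least 1.25-fold, the 3 highest members and the extremes of each role. Of each list the 2 largest called rises and falls are named, mostly without errors and q-values. Scripts ran in Python 3.11.15 with pandas 2.3.3, numpy 2.4.6 and scipy 1.17.1, and were tested on simulated data.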

Additional observations from a re-analysis of the deposited data

How the results depend on the processing

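The number of members called lower depends on how a call is made. It was 3 of 40 with normal p-values from the deposited statistic (6.17% of all tested genes), 13 of 40 at q under 0.01 (11.1%) and 0 of 40 at 1.5-fold (3.85%), against 22 of 40 at the deposited q-value under 0.05. Cuffdiff's p-value was smaller than the normal p for each called member: for Npm1 it was 0.0154 against 0.199. The cause was not tested. With normal p-values the other small subunit genes had 3 called lower, and the other large subunit, polymerase I, snoRNP, exosome and polymerase III genes 0. At q under 0.01 the counts were 8 for small subunit, 6 for large subunit, 1 for exosome, 2 for snoRNP, 2 for polymerase III and 0 for polymerase I genes, and at 1.5-fold they were 0 in all 6 pathway lists and 1 for ribosomal proteins. No setting called a member higher. The higher calls fell from 1 to 0 for large subunit genes with normal p-values, at q under 0.01 and at 1.5-fold. For the MYC network they fell from 2 to 1 with normal p-values. For ribosomal proteins they fell from 5 to 1 with normal p-values, to 3 at q under 0.01 and to 2 at 1.5-fold. Leaving out shared loci removes genes together with their calls. It left 0 higher calls among 37 large subunit genes, without Gltscr2, and 1 among 8 of the MYC network, without Mxd3. Among 52 ribosomal protein genes it left 2, without Rpl13a, Rps25 and Rplp2. For other small subunit genes the higher calls went from 0 to 1 without shared loci. Filters at 1 and 5 FPKM left 22 members called lower and leaving out shared loci left 16 of 27. Centring on the median of all tested genes keeps the deposited q-values, so it could not change a count; it put Pes1 above 0. The median log2 change stayed between -0.23 and -0.22, also with a pseudocount of 1. Leaving out a sample was not possible with group values. No paired analysis was possible because the table holds no value per sample. With no library values, error between cultures is unknown.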
